A study of Mus musculus with 6 samples.

Results

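Prostanoids are short-lived lipid signals made from arachidonic acid, and the genes described here cover their path from release to breakdown: Pla2g4a, Ptgs1, Ptgs2, Ptges, Ptges2, Ptges3, Ptgis, Ptger1, Ptger4 and Hpgd. They are 10 of the 35275 genes in the deposited expression table. They were chosen by function, with their FPKM in these libraries and their differences in the contrast used here already known, and Ptgs2 was chosen for its high value in the libraries numbered 3. For these 10 genes the differences, standard errors and adjusted p-values are therefore a description of size against spread and support nothing further.

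The cells were ID8-KMF, a derivative of the C57Bl6/J mouse ovarian cancer line ID8 that had been passaged in vivo. Poly(A) RNA was sequenced from subconfluent cells on dishes with Matrigel. The GFP-Rgnef group (3 libraries) was Rgnef-/- with GFP-Rgnef put back by lentivirus, and the knockout group (3 libraries) was Rgnef-/- alone. Rgnef, symbol Arhgef28, is a guanine nucleotide exchange factor for the small GTPase RhoA. Both groups lack the endogenous gene, no line with intact endogenous Rgnef was analysed here, and the effects of Rgnef, of its GFP tag and of lentiviral transduction cannot be told apart. The labels do not say whether the lines were clones, nor whether the libraries came from separate cultures, so a p-value here sets a difference against the spread of libraries that may be technical repeats.

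As background, cytosolic phospholipase A2 frees arachidonic acid from membranes, and the cyclooxygenases convert it to prostaglandin H2. Terminal synthases then make prostaglandin E2 or prostacyclin, G-protein-coupled receptors answer them, and 15-hydroxyprostaglandin dehydrogenase inactivates prostaglandin E2. Ptgs1 is widely known as the steady cyclooxygenase and Ptgs2 as the inducible one, whose message is short-lived and carries many AU-rich elements in its 3′ untranslated region. In ovarian surface and mesothelial cells prostanoid synthesis is known from ovulation and from peritoneal inflammation.

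The sequences below are the start regions of the 2 cyclooxygenase genes and of Pla2g4a. They were picked because Ptgs2 and Pla2g4a were both high in the libraries numbered 3 and Ptgs1 was not. Whether the sequences bear on those values was not tested. Each is the RefSeq promoter window on GRCm38.p6, from 250 bases before the annotated start to 50 bases after it, read 5′ to 3′ on the gene's strand, and capitals mark matches to the motifs searched. The Ptgs2 window lies at chr1:150099781-150100080 on the plus strand, the Pla2g4a window at chr1:149961241-149961540 on the minus strand and the Ptgs1 window at chr2:36230176-36230475 on the plus strand.
Ptgs2: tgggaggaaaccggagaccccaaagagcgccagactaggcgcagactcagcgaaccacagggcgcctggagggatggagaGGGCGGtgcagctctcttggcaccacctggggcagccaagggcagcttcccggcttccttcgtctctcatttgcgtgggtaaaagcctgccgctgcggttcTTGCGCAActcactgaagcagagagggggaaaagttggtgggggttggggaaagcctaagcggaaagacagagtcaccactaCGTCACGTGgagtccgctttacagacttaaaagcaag
Pla2g4a: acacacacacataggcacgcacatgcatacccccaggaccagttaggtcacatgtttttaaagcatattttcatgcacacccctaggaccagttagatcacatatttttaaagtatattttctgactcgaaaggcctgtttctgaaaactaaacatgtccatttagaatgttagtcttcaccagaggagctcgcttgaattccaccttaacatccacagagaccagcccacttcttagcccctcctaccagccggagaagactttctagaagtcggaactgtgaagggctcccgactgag
Ptgs1: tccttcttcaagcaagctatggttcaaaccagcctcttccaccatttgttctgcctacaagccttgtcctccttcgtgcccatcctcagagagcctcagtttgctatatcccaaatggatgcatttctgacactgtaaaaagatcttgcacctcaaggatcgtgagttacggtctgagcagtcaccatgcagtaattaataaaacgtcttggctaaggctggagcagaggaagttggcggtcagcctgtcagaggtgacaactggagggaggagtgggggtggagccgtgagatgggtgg

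On both strands, 6 motifs were searched: the TATA box TATAAA, the cAMP response half-site TGACG, the E-box CACGTG, the C/EBP motif TTGCGCAA, the AP-1 motif TGANTCA and the GC box GGGCGG. The Ptgs2 window held a GC box from position -170 relative to the annotated start, a motif that 35.7% of all 32851 RefSeq promoter windows of this length hold. It held the C/EBP motif from position -69, which 0.183% of windows hold. Counted from the annotated start, base 14 began a cAMP response half-site, read on the minus strand, and it overlapped an E-box beginning at base 17. Where transcription starts in these cells was not measured, so all positions depend on the annotated start. Of all windows, 20.8% hold the half-site and 7.15% the E-box. Neither the Pla2g4a nor the Ptgs1 window held any of the 6, which says only that these letters are absent from these bases. Pla2g4a had 2 annotated starts, and the window of the other is not described here. The sequence table held windows for 8 of the 10 genes, and those for Ptgis and Ptger1 were not used here.

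The 3′ untranslated region of Ptgs2 was searched for ATTTA, the core of AU-rich elements, overlapping matches included. In GENCODE M21 (GRCm38), on the transcript with the longest coding sequence, it had 2445 bases and held 14 copies; 2.5% of 10113 tested genes with at least 100 bases of 3′ untranslated region held 14 or more, against a median of 1. Its densest 30 bases, bases 12 to 41 after the stop codon, hold 4 of them, in capitals.
Ptgs2 3′ element: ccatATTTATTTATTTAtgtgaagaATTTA
By density Ptgs2 held 5.73 per kilobase, which 5% of genes reach. Pla2g4a held 4 copies in 443 bases, a count that 28.4% of genes reach. Its density was 9.03 per kilobase, which 1.08% of genes reach. Ptges2, Ptges3 and Hpgd also held 4 copies each, and Ptger4 held 5. Ptgs1 held 0 in 921 bases, and Ptges, Ptgis and Ptger1 also held 0. A match is a description of the annotated sequence and says nothing of message stability in these cells.

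The amount of RNA differed widely along the pathway. Levels are in FPKM, reads scaled by gene length and by library depth. By the mean of all 6 libraries the order was Ptges3 (410.3 FPKM), Ptgis (241.5 FPKM), Ptgs1 (163 FPKM), Ptgs2 (92.3 FPKM), Pla2g4a (52.1 FPKM), Ptges2 (40.9 FPKM), Ptger1 (6.94 FPKM), Ptger4 (0.478 FPKM), Ptges (0.342 FPKM) and Hpgd (0 in every library). The ranges over libraries did not overlap between Ptges3, Ptgis and Ptgs1, nor between Ptges2 and Ptger1 or between Ptger1 and Ptger4. Neighbours whose ranges overlapped were Ptgs1 and Ptgs2, Ptgs2 and Pla2g4a, Pla2g4a and Ptges2, and Ptger4 and Ptges. The plot of all libraries on a log axis shows these steps.

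**Figure D1:**
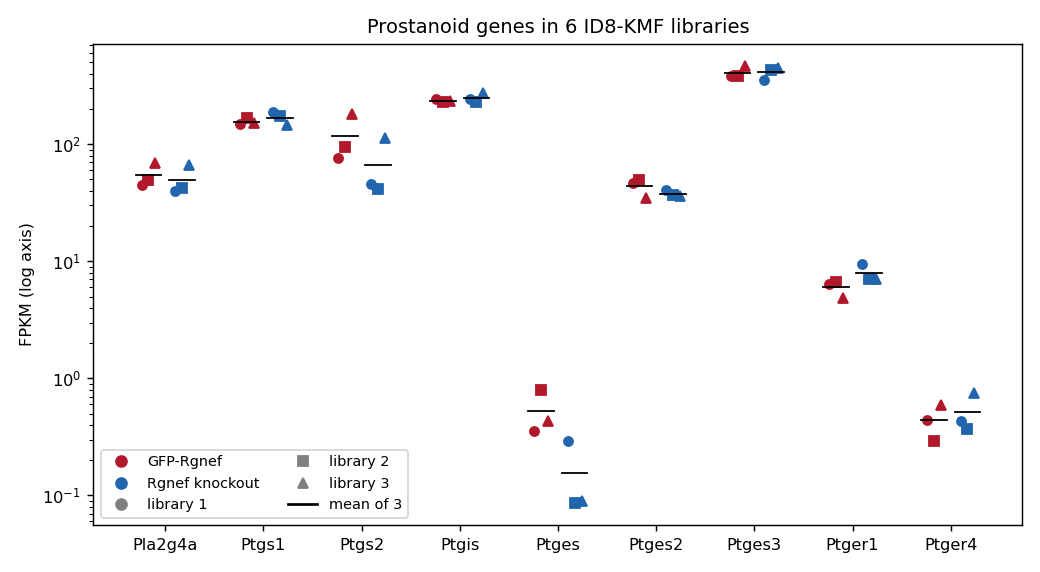
FPKM (log axis) of 9 prostanoid genes in each library, GFP-Rgnef libraries in red to the left of knockout libraries in blue; marker shape gives the library number and lines are means of 3. Ptgs2 libraries numbered 3 (182 FPKM with GFP-Rgnef, 114 FPKM in the knockout) stand above their group, and Hpgd is not drawn because it was 0 in all 6.

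The order of levels between genes also depends on the gene length inside the FPKM values. The deposited values were whole reads divided by a length, and for Ptgs2 that length was 2406 bases, the mean of its annotated transcripts, while its longest coding transcript has 4453 bases. For Ptgs1 the smallest length that gave whole reads was 1093 bases, against 2867 bases for its longest coding transcript. It was neither the mean of its annotated transcripts (1508 bases) nor the length of all its exons (3884 bases). A multiple of it would also give whole reads. Rescaled Ptgs1 values below therefore hold only if 1093 bases was the length used. For Ptges2 (1076 bases) and Ptger1 (3992 bases) the length was likewise the smallest that gave whole reads. The rescaled order below holds only if all of these lengths were the ones used. With the longest coding transcript as length the order of the 10 means over 6 libraries stayed as above, but Ptgs2 then averaged 63.5 in GFP-Rgnef cells and 36.3 in knockout cells on the rescaled FPKM, and Ptgs1 averaged 59.5 in GFP-Rgnef cells and 64.5 in knockout cells. Comparisons of 1 gene between libraries do not involve the length.

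Before the results by gene, the libraries numbered 3 need a description, since they stood apart in both groups. Depth was alike, 15898965 to 17977069 reads a library as implied by the FPKM values. The first principal component of log2(FPKM + 1) held 55.4% of the variance and separated GFP-Rgnef from knockout libraries, and the second held 25.2% and separated the libraries numbered 3 from the others in both groups. Arhgef28 was at 57.2, 50.9 and 50.02 FPKM with GFP-Rgnef and at 0.116, 0.110 and 0.134 FPKM in the knockout, as labelled. Markers of the labelled cells were present, with summed levels of 1656 to 2465 FPKM over 8 genes in GFP-Rgnef libraries and 1548 to 2483 FPKM in knockout libraries, although Krt7 averaged 0.216 FPKM. The lowest of these sums in each group was that of the library numbered 3. Krt19 was the largest part of them, at a mean of 1137 FPKM. Single markers differed between the groups in both directions. Krt18 averaged 320 FPKM with GFP-Rgnef and 224 FPKM in the knockout, and Cdh1 7.325 and 5.15 FPKM, both without overlap. Upk3b averaged 92.3 FPKM with GFP-Rgnef and 251 FPKM in the knockout, with overlap. The groups also overlapped for Krt7, Krt8, Krt19, Wt1 and Msln. Of 10 leukocyte markers 9 averaged below 1 FPKM, Adgre1 and Cd3e were at 0 in all libraries, and the sums were 2.35 to 3.75 FPKM with GFP-Rgnef and 2.63 to 4.02 FPKM in the knockout, mostly Cd68. Platelet markers, of interest because platelets use Ptgs1, summed to 2.50 to 2.66 FPKM over 4 genes with GFP-Rgnef and 1.57 to 2.08 FPKM in the knockout, with Gp9 at 0. Of 5 endothelial markers 4 averaged below 1 FPKM and Kdr was at 0, but Tek alone brought the sums to 95.7 to 108 FPKM with GFP-Rgnef and 85.9 to 146 FPKM in the knockout. The 6 fibroblast markers summed to 49.5 to 71.1 FPKM with GFP-Rgnef and 39.5 to 44.1 FPKM in the knockout, mostly Dcn. Dcn averaged 58.9 FPKM with GFP-Rgnef and 32.8 FPKM in the knockout. The other way went Col1a1 (1.79 FPKM with GFP-Rgnef, 5.52 FPKM in the knockout) and, in the same order, Pdgfra (0.436 and 1.04 FPKM) and Col1a2 (0.817 and 2.03 FPKM, overlapping). Lum and Fap averaged 0.0235 and 0.0155 FPKM over all libraries. In such bulk samples, fewer cells of a type and less RNA per cell cannot be told apart.

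Release of arachidonic acid begins with Pla2g4a, the cytosolic phospholipase A2 that responds to calcium (chr1:149829618-149961290, minus strand, GRCm38). It was at 45.2, 49.3 and 69.7 FPKM in GFP-Rgnef libraries 1 to 3, against 39.7, 42.7 and 66.0 FPKM in knockout libraries 1 to 3. The library numbered 3 was the highest of each group, and the groups overlapped. The means were 54.8 ± 13.1 FPKM with GFP-Rgnef and 49.5 ± 14.4 FPKM in the knockout (SD, n = 3 each), a log2 difference of 0.16 (SE 0.212, limma adjusted p = 0.699). Differences here and below are GFP-Rgnef minus knockout on the log2(FPKM + 1) scale, which understates changes of low genes, and adjusted p-values are over all 11500 genes with a mean of at least 0.5 FPKM.

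Ptgs2, the inducible cyclooxygenase (chr1:150100031-150108227, plus strand), was at 76.2, 94.3 and 182 FPKM in GFP-Rgnef libraries 1 to 3, against 45.7, 41.8 and 114 FPKM in knockout libraries 1 to 3. These rest on 3119, 3607 and 7563 reads with GFP-Rgnef and 1977, 1752 and 4586 reads in the knockout, so counting error is small beside the spread. Libraries 1 and 2 with GFP-Rgnef were above libraries 1 and 2 of the knockout but below its library 3, so the groups overlapped. The means were 118 ± 56.6 FPKM with GFP-Rgnef and 67.1 ± 40.5 FPKM in the knockout (SD, n = 3 each), a ratio of 1.75. The log2 difference was 0.85 (SE 0.415, limma adjusted p = 0.223), which does not pass the threshold of 0.05. Without the libraries numbered 3 it was 0.94 (SE 0.101, limma adjusted p = 0.000596), past the threshold with 2 libraries a group. Without knockout library 3 alone it was 1.30 (limma adjusted p = 0.0344), and without GFP-Rgnef library 3 alone it was 0.49 (limma adjusted p = 0.4497).

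Ptgs1, the other cyclooxygenase (chr2:36230426-36252272, plus strand), was at 149.5, 166 and 152 FPKM with GFP-Rgnef, against 188, 173 and 146 FPKM in the knockout. Its highest values were in knockout libraries 1 and 2 and its lowest in knockout library 3, where Ptgs2 was at its highest within the knockout. With GFP-Rgnef, library 3 was between libraries 1 and 2 for Ptgs1. The means were 156 ± 8.88 FPKM with GFP-Rgnef and 169 ± 21.3 FPKM in the knockout (SD, n = 3 each), a log2 difference of -0.11 (SE 0.0968, limma adjusted p = 0.523). The bars for Pla2g4a, Ptgs2 and Ptgs1 show the 3 genes beside each other.

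**Figure D2:**
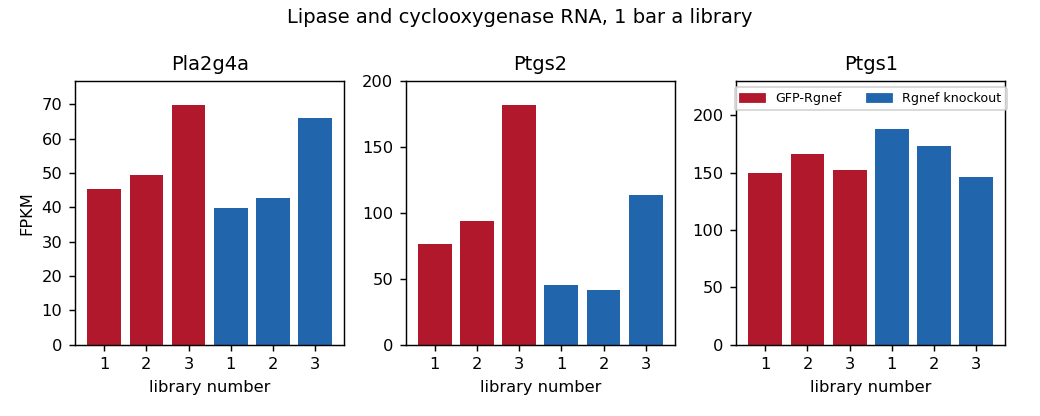
FPKM of Pla2g4a, Ptgs2 and Ptgs1, 1 bar a library, GFP-Rgnef in red on the left and the knockout in blue on the right of each panel. Library 3 is the tallest bar of its group for Pla2g4a (69.7 FPKM with GFP-Rgnef, 66.0 FPKM in the knockout) and Ptgs2 (182 FPKM with GFP-Rgnef, 114 FPKM in the knockout), and the shortest knockout bar for Ptgs1 (146 FPKM).

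The make-up of cyclooxygenase RNA followed from these values. Ptgs2 made up 33.8, 36.2 and 54.4% of the summed FPKM of both cyclooxygenases in GFP-Rgnef libraries 1 to 3, against 19.6, 19.5 and 43.8% in knockout libraries 1 to 3. The means were 41.5 ± 11.3% with GFP-Rgnef and 27.6 ± 14.03% in the knockout (SD, n = 3 each), and the groups overlapped through knockout library 3. The sum itself was 226, 260.4 and 334 FPKM with GFP-Rgnef, against 234, 215 and 259.9 FPKM in the knockout. Divided by the longest coding transcripts instead, the Ptgs2 share averaged 49.8% with GFP-Rgnef and 34.5% in the knockout, and divided by all exons, 56.4% with GFP-Rgnef and 40.5% in the knockout. Which cyclooxygenase is the more abundant thus changes with the length in GFP-Rgnef library 2 and in knockout library 3. These changes and both rescaled shares hold only if the Ptgs1 length inside the deposited values was 1093 bases.

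**Figure D3:**
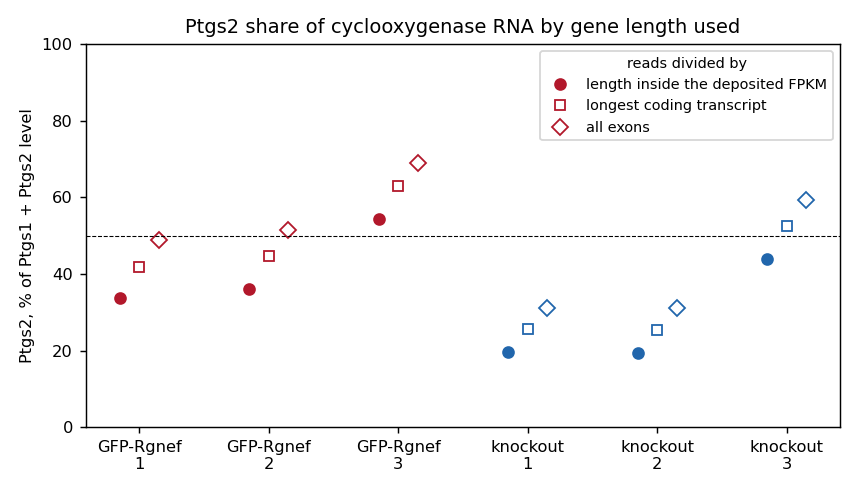
Ptgs2 as a percentage of the Ptgs1 and Ptgs2 levels in each library (GFP-Rgnef left, knockout right), with the reads divided by the length inside the deposited FPKM (filled circles), the longest coding transcript (squares) or all exons (diamonds); the dashed line is 50%. Filled circles reach 54.4% in GFP-Rgnef library 3 and 43.8% in knockout library 3, and 19.5% at the lowest. Squares and diamonds rest on the smallest Ptgs1 length that gave whole reads.

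The terminal synthases divide into genes with much RNA and 1 gene with hardly any. Ptgis, prostacyclin synthase (chr2:167191805-167240604, minus strand), was at 245, 229.6 and 233 FPKM with GFP-Rgnef, against 241, 227 and 273 FPKM in the knockout. Ptges3 (chr10:128058954-128077272, plus strand), a cytosolic prostaglandin E synthase also known as p23, a partner of the chaperone Hsp90, was at 381, 382 and 468 FPKM with GFP-Rgnef, against 351, 433 and 447 FPKM in the knockout. The groups overlapped for both. Ptgis averaged 236 ± 8.003 FPKM with GFP-Rgnef and 247 ± 23.2 FPKM in the knockout (SD, n = 3 each), a log2 difference of -0.06 (SE 0.0772, limma adjusted p = 0.661). Ptges3 averaged 410.2 ± 49.7 FPKM with GFP-Rgnef and 410.4 ± 52.0 FPKM in the knockout (SD, n = 3 each), a log2 difference of 0.00067 (SE 0.114, limma adjusted p = 0.998).

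Ptges2, the membrane-associated prostaglandin E synthase 2 (chr2:32395896-32405772, plus strand), was at 46.9, 49.7 and 34.9 FPKM with GFP-Rgnef, against 40.7, 36.8 and 36.2 FPKM in the knockout. GFP-Rgnef library 3 was the lowest of all 6, and the groups overlapped. The means were 43.8 ± 7.85 FPKM with GFP-Rgnef and 37.9 ± 2.41 FPKM in the knockout (SD, n = 3 each), a log2 difference of 0.19 (SE 0.128, limma adjusted p = 0.380). Without the libraries numbered 3 it was 0.31 (limma adjusted p = 0.0231), and without GFP-Rgnef library 3 alone it was 0.34 (limma adjusted p = 0.0341).

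Ptges, the inducible microsomal prostaglandin E synthase 1 that is known to act with Ptgs2 (chr2:30889471-30929863, minus strand), was near the limit of detection. It was at 0.352, 0.801 and 0.434 FPKM with GFP-Rgnef, against 0.292, 0.0861 and 0.0895 FPKM in the knockout, which rest on 8, 17 and 10 reads with GFP-Rgnef and 7, 2 and 2 reads in the knockout. All 3 GFP-Rgnef libraries were above all 3 knockout libraries, by 1 read between the nearest. Its mean was below the 0.5 FPKM needed to enter the test. Tested without that minimum, the log2 difference was 0.40 (SE 0.125, limma adjusted p = 0.137).

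Of the receptors for prostaglandin E2, Ptger1 (receptor EP1, known to raise intracellular calcium; chr8:83666678-83672753, plus strand) was at 6.41, 6.68 and 4.90 FPKM with GFP-Rgnef, against 9.56, 7.11 and 7.002 FPKM in the knockout. Every GFP-Rgnef library was below every knockout library. The means were 5.996 ± 0.958 FPKM with GFP-Rgnef and 7.89 ± 1.45 FPKM in the knockout (SD, n = 3 each), a log2 difference of -0.34 (SE 0.146, limma adjusted p = 0.167). The strand setting of the counting is not given in the sources used here, so reads from either strand cannot be told apart and the level of Ptger1 is uncertain.

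Ptger4 (receptor EP4, known to raise cAMP; chr15:5206661-5244187, minus strand) was at 0.443, 0.292 and 0.587 FPKM with GFP-Rgnef, against 0.436, 0.367 and 0.745 FPKM in the knockout, on 16 to 43 reads a library. The groups overlapped, and its mean was also too low to enter the test; without that minimum the log2 difference was -0.07 (SE 0.118, limma adjusted p = 0.809). Hpgd, the dehydrogenase that inactivates prostaglandin E2 (chr8:56294585-56321043, plus strand), had 0 reads in all 6 libraries. A count of 0 allows up to 3 reads, or 0.0992 to 0.112 FPKM depending on the library, for counting error only.

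Of the 10 genes 7 entered the test, and 0 were called higher and 0 lower by limma at adjusted p below 0.05, and likewise 0 and 0 with voom on the recovered reads. Over all 11500 genes tested 5.34% were called higher and 8.04% lower. Ptger1 alone of the 7 passed at an unadjusted p below 0.05, which 28.4% of all genes tested did. Ptger1 was also the 1 of the 7 whose groups did not overlap, against 33.4% of all genes tested. Without the libraries numbered 3, 2 were called higher, Ptgs2 and Ptges2, and 0 lower, where 9.11% of all genes were called higher and 11.1% lower. Nothing is read from these counts, because the genes were chosen with this contrast known.

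The libraries numbered 3 were described by the FPKM of library 3 over the mean of libraries 1 and 2, within each group. For Ptgs2 this ratio was 2.13 with GFP-Rgnef and 2.60 in the knockout. Of 10675 genes with a mean of at least 1 FPKM, 14 were at or above the Ptgs2 ratio in both groups, Ptgs2 counted, and 139 (1.30%) had a ratio of at least 1.5 in both. The median ratio over these genes was 1.00 with GFP-Rgnef and 1.01 in the knockout. As Ptgs2 was chosen for this value it is a description without a test.

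Along the pathway the ratios went different ways. Pla2g4a had 1.48 with GFP-Rgnef and 1.60 in the knockout, and Ptges3 had 1.23 with GFP-Rgnef and 1.14 in the knockout. Ratios below 1 in both groups were those of Ptgs1 (0.966 with GFP-Rgnef and 0.809 in the knockout), Ptger1 (0.749 with GFP-Rgnef and 0.840 in the knockout) and Ptges2 (0.723 with GFP-Rgnef and 0.935 in the knockout). Ptgis had 0.983 with GFP-Rgnef and 1.16 in the knockout. Markers of the labelled cells moved unevenly in the same libraries. Krt19, a keratin of simple epithelia, had 0.573 with GFP-Rgnef and 0.527 in the knockout. Upk3b, a mesothelial marker, had 0.364 with GFP-Rgnef and 0.365 in the knockout. Nearer to 1 were Krt8 (0.888 with GFP-Rgnef and 0.937 in the knockout) and, in the same order, Krt18 (0.849 and 1.03), Wt1 (0.917 and 0.867) and Msln (0.854 and 0.738). Cdh1 had 0.987 with GFP-Rgnef and 0.543 in the knockout. Of the fibroblast markers, Col1a1 was higher in these libraries (2.58 with GFP-Rgnef and 2.33 in the knockout) and Dcn lower (0.651 with GFP-Rgnef and 0.620 in the knockout). Col1a2 was at 0, 0 and 2.45 FPKM in GFP-Rgnef libraries 1 to 3, against 0.173, 0.0768 and 5.83 FPKM in knockout libraries 1 to 3. What part these have in the Ptgs2 values was not tested.

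**Figure D4:**
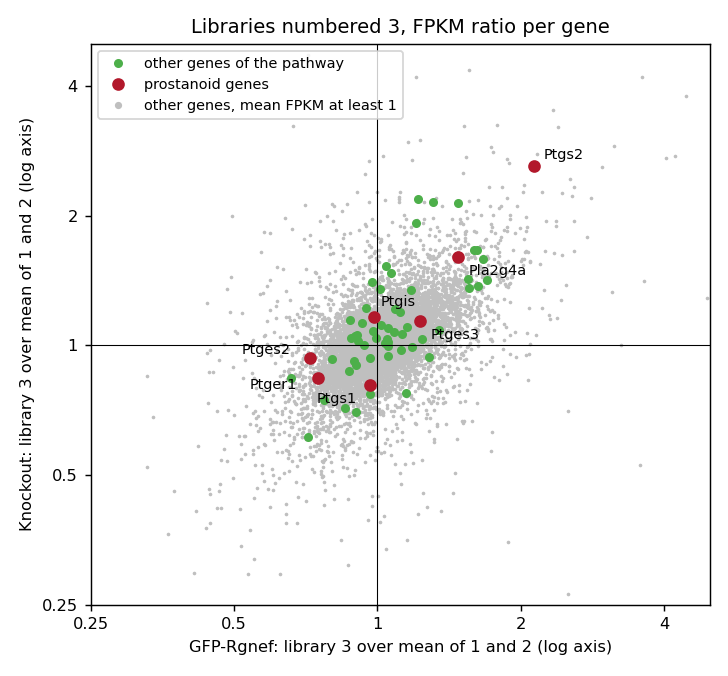
For each gene with a mean of at least 1 FPKM, library 3 over the mean of libraries 1 and 2 in GFP-Rgnef cells (x, log axis) and in knockout cells (y, log axis); red points are prostanoid genes, green points other genes of the pathway, and a few genes beyond the axes are not drawn. Ptgs2 lies at 2.13 for GFP-Rgnef and 2.60 for the knockout, Pla2g4a at 1.48 for GFP-Rgnef and 1.60 for the knockout, and the other prostanoid genes lie nearer to 1.

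Ptgs2 and Pla2g4a are also neighbours on chromosome 1. Their annotated ends lie 139 kb apart, with 2 genes between them, neither protein coding. Of these, Ptgs2os was at 1.84, 2.43 and 2.75 FPKM with GFP-Rgnef, against 1.51, 1.29 and 2.25 FPKM in the knockout (log2 difference 0.32, SE 0.167, limma adjusted p = 0.249), highest in the library numbered 3 of each group. Over the 6 libraries, log2(FPKM + 1) of Pla2g4a followed that of Ptgs2 with Pearson's r = 0.923 and Spearman's rho = 0.943, while Ptgs1 had r = -0.746 and Ptger1 r = -0.796. The points share the groups and the libraries numbered 3, so these values only restate those orders.

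The genes whose pattern was most like that of Ptgs2 were sought by Pearson's r of log2(FPKM + 1) over the 6 libraries. Clones, pseudogenes, Gm numbers, accessions and genes without a symbol were left out. Candidates were 302 other tested genes with a mean of at least 1 FPKM and a standard deviation of at least 0.5 on the log2 scale. Of these, 21 had r of at least 0.9. The 10 highest were Gstm1 (r = 0.982), Mgst1 (r = 0.980), Ptprn (r = 0.977), Ereg (r = 0.970), Blvrb (r = 0.969), Prl2c2 (r = 0.968), Gsta3 (r = 0.964), Nrn1 (r = 0.956), Cxcl5 (r = 0.956) and Apcdd1 (r = 0.955). Mgst1, a microsomal glutathione S-transferase, was at 62.2, 82.3 and 129.9 FPKM with GFP-Rgnef, against 51.8, 48.9 and 83.0 FPKM in the knockout. Ereg, the epidermal growth factor receptor ligand epiregulin, was at 13.8, 13.9 and 28.4 FPKM with GFP-Rgnef, against 9.74, 10.2 and 18.3 FPKM in the knockout. Nrn1, neuritin, was the most abundant of them at 233, 256 and 402 FPKM with GFP-Rgnef, against 145, 149.8 and 225 FPKM in the knockout. In each of these 3 the library numbered 3 was the highest of its group. Gstm1, Gsta3 and Prl2c2 have close paralogs whose reads the counting could split, so their levels are uncertain.

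The other genes of the pathway were a list of 95 chosen by function, with earlier results of these data known. All were present in the table, 57 entered the test and 11 were at 0 in every library. Of the 57, 10 rose in GFP-Rgnef cells and 1 fell, and 46 did not pass the test, where 5.34% of all genes tested rose and 8.04% fell. The median log2 difference of the 57 was 0.09, beside 0.02 over all genes tested. Without the libraries numbered 3 the counts were 15 higher and 2 lower, where 9.11% of all genes tested were higher and 11.1% lower, with all 10 and the 1 of the full comparison among them. Leaving out GFP-Rgnef library 2 gave 6 higher and leaving out knockout library 2 gave 5. Nothing is read from these counts, from the median or from the counts by sublist below, because of how the list was chosen.

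Among 20 phospholipases and lipases that release arachidonate, 7 were tested and 2 rose. Pla2g6, a calcium-independent phospholipase A2, was at 22.4, 23.6 and 19.99 FPKM with GFP-Rgnef, against 15.98, 14.7 and 13.4 FPKM in the knockout (log2 difference 0.55, SE 0.0942, limma adjusted p = 0.00853). Pla2g12a, a secreted phospholipase A2, was at 24.0, 26.9 and 27.7 FPKM with GFP-Rgnef, against 18.9, 17.9 and 22.3 FPKM in the knockout (log2 difference 0.40, SE 0.0998, limma adjusted p = 0.0351). In neither did the groups overlap. For comparison with this sublist and those below, the groups of 33.4% of all genes tested did not overlap, 5.34% rose and 8.04% fell. The Pla2g12a call is lost when any library other than knockout library 3 is left out, with an adjusted p of 0.0525 to 0.127.

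Of 8 other prostanoid synthases and reductases 3 were tested and 2 rose. Cbr3, a carbonyl reductase, was at 15.3, 17.2 and 25.2 FPKM with GFP-Rgnef, against 3.804, 2.65 and 4.39 FPKM in the knockout (log2 difference 2.12, SE 0.2002, limma adjusted p = 0.000886). Akr1c18, an aldo-keto reductase known in mouse ovary as 20alpha-hydroxysteroid dehydrogenase, was at 6.77, 9.64 and 13.3 FPKM with GFP-Rgnef, against 3.03, 2.44 and 4.55 FPKM in the knockout (log2 difference 1.31, SE 0.241, limma adjusted p = 0.0109). Without knockout library 2 the adjusted p of Akr1c18 was 0.0509. The thromboxane synthase Tbxas1 and the prostaglandin D synthases Ptgds and Hpgds were below the level needed for the test, at means over all libraries of 0.0433, 0.288 and 0.0508 FPKM.

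Of 10 other prostanoid receptors and related proteins 2 were tested and 0 were called. The prostaglandin E2 receptors Ptger2 and Ptger3 averaged 0.00794 and 0 FPKM over the 6 libraries, the prostacyclin receptor Ptgir 0.143 FPKM and the prostaglandin F receptor Ptgfr 0.436 FPKM. Ptger1, with the uncertainty given above, thus had the highest value of the prostaglandin E2 receptors. The tested genes were Ppard, a nuclear receptor, at 31.7 ± 2.35 FPKM with GFP-Rgnef and 28.9 ± 3.16 FPKM in the knockout, and Ptgfrn, which binds the prostaglandin F receptor, at 19.7 ± 0.803 FPKM with GFP-Rgnef and 18.4 ± 1.23 FPKM in the knockout (SD, n = 3 each).

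Of 6 genes of prostanoid transport and breakdown 5 were tested and 1 rose. Abcc4, a membrane pump known to export prostaglandin E2, was at 17.4, 17.3 and 19.4 FPKM with GFP-Rgnef, against 12.1, 10.6 and 11.1 FPKM in the knockout (log2 difference 0.64, SE 0.0849, limma adjusted p = 0.00364). The groups were well apart. Ptgr1, prostaglandin reductase 1, was at 39.3, 55.3 and 76.8 FPKM with GFP-Rgnef, against 42.8, 37.1 and 54.9 FPKM in the knockout, overlapping and highest in the libraries numbered 3 (limma adjusted p = 0.435).

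Enzymes of the neighbouring branches were mostly low. Of 10 lipoxygenase, leukotriene and epoxide genes 2 were tested; Ephx1, a microsomal epoxide hydrolase, rose, at 132, 162 and 182 FPKM with GFP-Rgnef, against 108, 91.2 and 103 FPKM in the knockout (log2 difference 0.64, SE 0.119, limma adjusted p = 0.0113). The Ephx1 call is lost without GFP-Rgnef library 2 (adjusted p = 0.0502) or without knockout library 2 (adjusted p = 0.0548). Lta4h, the leukotriene A4 hydrolase, was at 33.0 ± 1.53 FPKM with GFP-Rgnef and 36.1 ± 0.2001 FPKM in the knockout (SD, n = 3 each; limma adjusted p = 0.253).

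All 8 genes of arachidonate activation and re-esterification were tested and 1 rose. Acsl5, a long-chain acyl-CoA synthetase, was at 151, 155 and 173 FPKM with GFP-Rgnef, against 124, 131 and 136 FPKM in the knockout (log2 difference 0.29, SE 0.0715, limma adjusted p = 0.0328). This call is lost when any 1 library other than knockout library 3 is left out, and 8.31% of the bases in its exons overlap Zdhhc6 on the other strand, at 38.2 FPKM with GFP-Rgnef and 36.4 FPKM in the knockout. Acsl4, the synthetase known for its preference for arachidonate, was at 46.6, 55.4 and 79.1 FPKM with GFP-Rgnef, against 50.3, 51.6 and 72.7 FPKM in the knockout, highest in the libraries numbered 3 as Ptgs2 was (limma adjusted p = 0.931).

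All 8 RNA-binding proteins known to act on the Ptgs2 message were tested and 0 were called by limma, with 2 at an unadjusted p below 0.05 (28.4% of all genes tested) and their median log2 difference at 0.03. Hnrnpd, which binds AU-rich elements such as the one printed above, was at 370 ± 16.9 FPKM with GFP-Rgnef and 380.2 ± 26.4 FPKM in the knockout (SD, n = 3 each; limma adjusted p = 0.776). Khsrp, another binder of such elements, was at 97.1 ± 5.79 FPKM with GFP-Rgnef and 89.3 ± 6.48 FPKM in the knockout (SD, n = 3 each; limma adjusted p = 0.360).

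Of 10 genes known as targets of cAMP, downstream of prostaglandin E2 receptors, 8 were tested and 1 fell. Pde4d, a phosphodiesterase that degrades cAMP, was at 5.18, 4.95 and 6.49 FPKM with GFP-Rgnef, against 10.6, 9.65 and 9.52 FPKM in the knockout (log2 difference -0.75, SE 0.1099, limma adjusted p = 0.00499). Areg, the epidermal growth factor receptor ligand amphiregulin, was at 37.5, 34.4 and 57.1 FPKM with GFP-Rgnef, against 18.4, 21.8 and 33.4 FPKM in the knockout. Its groups did not overlap but its adjusted p was 0.0642 by limma, and 0.0010 without the libraries numbered 3.

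Of 15 immediate early and NF-kB genes known to be induced beside Ptgs2, 14 were tested, 3 rose and Il6 was at 0 in all libraries. Ier3, an immediate early gene, was at 139, 139.5 and 161 FPKM with GFP-Rgnef, against 89.6, 89.4 and 98.6 FPKM in the knockout (log2 difference 0.66, SE 0.0786, limma adjusted p = 0.00243). Nfkbia, the inhibitor IkB-alpha and itself a target of NF-kB, was at 33.4, 34.4 and 33.1 FPKM with GFP-Rgnef, against 23.6, 20.5 and 23.7 FPKM in the knockout (log2 difference 0.56, SE 0.0780, limma adjusted p = 0.00437). Both groups of values were well apart. Cxcl1, a neutrophil chemokine, was at 45.4, 69.2 and 84.4 FPKM with GFP-Rgnef, against 21.1, 18.2 and 41.9 FPKM in the knockout (log2 difference 1.31, SE 0.314, limma adjusted p = 0.0300), and leaving out a library other than GFP-Rgnef library 1 or knockout library 3 ended this call. The 6 genes called without the libraries numbered 3 but not with them were Zfp36l2, Areg, Junb, Fosl1 and Ier2, which were higher, and Lpcat2, which was lower; all but Areg are named here after their values were seen.

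**Figure D5:**
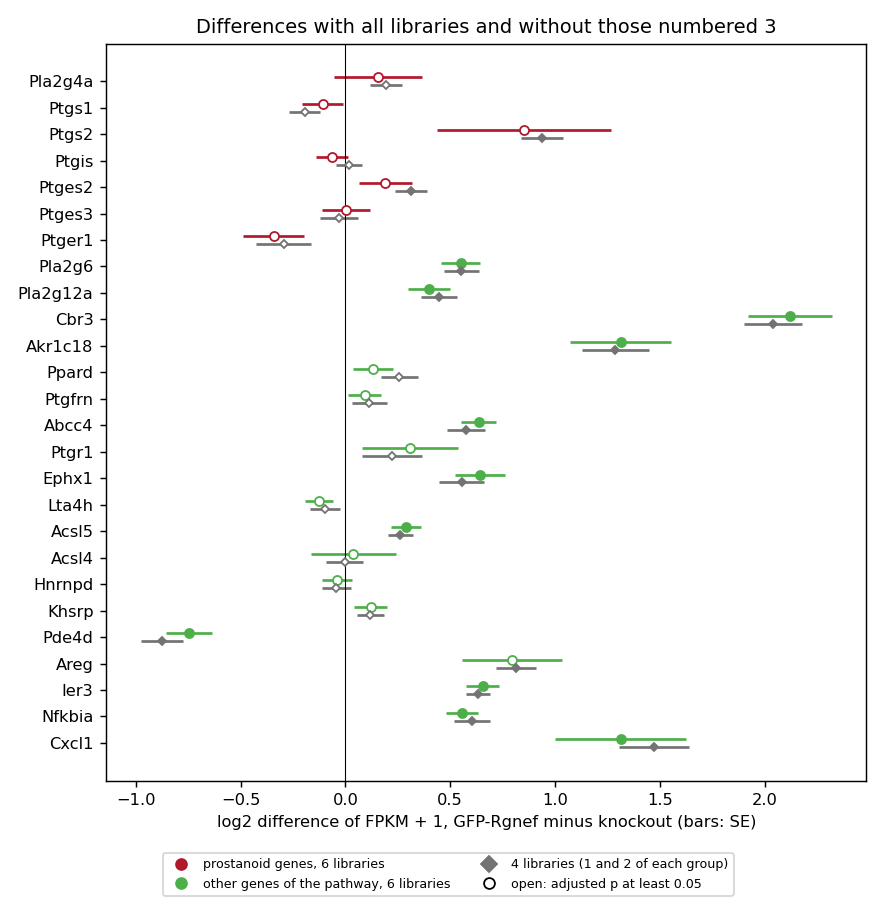
Log2 difference of FPKM + 1 (GFP-Rgnef minus knockout) with its SE for the 7 tested prostanoid genes (red) and the named genes of the pathway (green) over 6 libraries, and over 4 libraries without those numbered 3 (grey diamonds); open symbols have an adjusted p of at least 0.05. Ptgs2 is at 0.85 over 6 libraries with a wide bar (SE 0.415) and at 0.94 over 4 with a narrow one (SE 0.101).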

How the data were processed

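RNA from 6 libraries was measured, 3 a group, and groups were taken from the labels. Per the submitters' processing notes, CASAVA 1.8, TopHat2 2.0.9, DESeq2 and the build mm10 were used; the counter, annotation and strand setting are not given in the sources used here. The deposited values are FPKM per gene. Low FPKM values are whole multiples of 1 read (tolerance 0.02 reads), which gave reads, depth and the length used: the mean annotated transcript length in GENCODE M21 for 11410 of 19655 genes above 0, the exon union for 117, the smallest length giving whole reads for 8127, and none for 1.

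Genes with a mean of at least 0.5 FPKM were tested on log2(FPKM + 1) with limma 3.58.1 (trend, R 4.3.3), Benjamini-Hochberg adjustment over 11500 genes and a threshold of 0.05; the script was first tested on simulated data. Gene IDs had symbols for 34490 of 35275. Alternatives were another pseudocount, filter, scaling (TPM) and trend setting, voom on reads, the replicate block, chromosome medians removed, and libraries left out; the lengths tried for the Ptgs2 share were chosen after seeing the data. Named were the 10 prostanoid genes; in each sublist up to 3 called genes with the smallest adjusted p, filled to 2 by abundance; and the 10 genes most like Ptgs2. The prostanoid genes and all lists were chosen with earlier results of these data known. Promoters came from RefSeq (GRCm38.p6). Depth of 15898965 to 17977069 reads makes 3 reads about 0.1 FPKM for a gene of Hpgd's length, and intervals of counting do not cover other error. A result on 1 further gene is not reported here.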

Additional observations from a re-analysis of the deposited data

How the results depend on the processing

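Of the 15 alternatives, the Ptgs2 difference kept its direction in all, and 12 left it above the adjusted p threshold; it passed with the replicate block (0.85, adjusted p = 0.000136), without the libraries numbered 3 (0.94) and without knockout library 3, and ranged from 0.49 to 1.30 when 1 library was left out (adjusted p 0.0344 to 0.514). The count of prostanoid genes called higher was 1 with the block, 2 without the libraries numbered 3 and 0 to 1 when 1 library was left out; the count called lower was 1 with the block, Ptger1 (adjusted p = 0.0427). The other genes of the pathway called higher were 16 with the block and 5 to 15 when 1 library was left out; Areg was among those called with the block (adjusted p = 0.000104); those called lower were 3 with the block, 2 without the libraries numbered 3 and 1 to 2 when 1 was left out. Deviations of same-numbered libraries correlated at 0.321, -0.020 and 0.552 over 11500 genes, and not every library correlated best with its own number, so the numbers were not taken to pair the libraries. The exon union moved the Ptgs2 share in GFP-Rgnef cells to 56.4%, given the smallest Ptgs1 length that gave whole reads.

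Differences near 0 changed sign: Ptges3 with TPM scaling (-0.023), without the libraries numbered 3 (-0.031), with chromosome medians removed (-0.017) and when 1 library was left out (-0.108 to 0.0666); Ptgis without the libraries numbered 3 (0.018) and when 1 was left out (-0.121 to 0.0095); Pla2g4a when 1 was left out (-0.029 to 0.378); Acsl4 without the libraries numbered 3 (-0.0037) and when 1 was left out (-0.17 to 0.21). None of these was called. Calls were lost for Acsl5 in 8 alternatives, Pla2g12a in 7, Cxcl1 in 5, Ephx1 in 2 and Akr1c18 in 1; the causes were not tested. Cbr3, Pla2g6, Abcc4, Ier3, Nfkbia and Pde4d kept direction and call in all 15. Depth limits Ptges, Ptger4 and Hpgd, each at 43 reads or fewer a library.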
